A study of Schizosaccharomyces pombe with 8 samples.

Results

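The transcripts described here are those of the mug and meu genes of the fission yeast Schizosaccharomyces pombe, named for being meiotically upregulated (mug) or for meiotic expression upregulated (meu). Members were chosen by symbol alone, as every gene whose deposited symbol begins with mug or meu followed by a number. The rule found 154 of the 7092 genes in the files, 123 with a mug symbol and 31 with a meu symbol. By the RefSeq annotation 123 of them are protein-coding genes, 26 are antisense RNAs named after a member and 5 are other non-coding RNAs. A level of at least 1 FPKM (a transcript's fragments relative to its length and to all fragments mapped) in any group was reached by 145 members, namely 114 coding genes, all 26 antisense RNAs and all 5 other non-coding RNAs. The 9 members below it were mug27, mug28, mug68, mug93, mug95, mug97, mug116, mug117 and mug128. Just inside the limit were mug55 with a highest level of 1.08 FPKM and meu11 with 1.18 FPKM, and just outside were mug27 with 0.872 FPKM and mug28 with 0.860 FPKM.

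Fission yeast cells enter meiosis when starved, after cells of opposite mating type have fused, and then pass through recombination, nuclear divisions and the building of spores. The meiotic genes are turned on in waves by transcription factors, of which Ste11 acts at the start and the forkhead factor Mei4 around the nuclear divisions. In dividing cells many of their transcripts are kept low, in part because the RNA-binding protein Mmi1 hands them to the nuclear exosome, the complex that degrades RNA from its end. The cells measured here were not in meiosis by design. They were haploid cells of a single mating type (h-) in rich yeast extract medium with supplements, taken in mid-log phase. The wild type has the genotype h- leu1-32 ura4-D18. The other strain was labelled ∆wee1 and carries wee1::ura4+, which marks wee1, the kinase that delays mitosis by phosphorylating Cdc2, as replaced by ura4+. It too is h- and ura4-D18, with its leucine marker written leu-32. Each strain was left untreated or exposed to 20 mM H2O2, hydrogen peroxide, for 15 min. RNA was extracted from whole cells, and libraries were made with a stranded kit that selects poly(A) RNA.

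Each of the 4 groups had 2 libraries, 8 in all, described by the submitters as biological replicates with no statement of how the cultures were separated. The deposited files pool the replicates, with 1 FPKM per gene in each group. The values below therefore carry no SD between replicates, and the number of reads behind them is unknown. A member is called changed where the authors' deposited table gives a q-value under 0.05. Ratios were taken on the log2(FPKM + 1) scale, which understates changes of members near 1 FPKM. The ± after a log2 ratio is a standard error from the fold change and test statistic in the authors' deposited table, carried to that scale. Near 1 FPKM it is smaller than the error that the deposited test itself implies. In RNA from whole cultures, fewer cells with a transcript and less of it per cell cannot be told apart. Below, 4 values in a row without further words are the pools in the order untreated wild type, treated wild type, untreated ∆wee1 label and treated ∆wee1 label. The wee1 transcript read 8.91, 8.17, 16.1 and 15.5 FPKM, which goes against a deletion, while the ura4 marker read 0.131, 0.0704, 184.8 and 234.8 FPKM and went with the label. The genotype is therefore written as a label throughout. Ribosomal RNA genes held 3.13%, 22.2%, 10.9% and 3.19% of each pool's added FPKM, and the members held 0.226%, 0.162%, 0.249% and 0.263%. How strand was set in the authors' counting is unknown, so reads of genes that overlap on opposite strands cannot be told apart, and 106 of the 145 members lie in a locus that the authors' deposited table shares with another gene.

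Because the symbols say nothing of sequence, the stretch before each coding member at 1 FPKM or more was searched for short motifs. The 250 bases upstream of the annotated gene start were read for 114 coding members and for 5105 nuclear protein-coding genes from RefSeq, build ASM294v3. The 5105 genes were not filtered by level and include the members. The motif GTAAACA, the form in which forkhead factors such as Mei4 bind DNA, stood on either strand in 47 members, 41.2%, and in 14.8% of all coding genes. The related GTAAATA, whose matches never coincide with those of GTAAACA, stood in 21.9% of members and 14.4% of all. TGACGT, the core bound by the stress factor Atf1, stood in 8 members, 7.02%, and in 5.52% of all. TTACGTAA, a site for the peroxide-responsive factor Pap1, was present in 0.877% of members and 0.470% of all. The hexamer TTAAAC, recognised by Mmi1, occurred 0.469 times per kb of member exons and 0.411 times per kb of the exons of all coding genes. Of members 17.5% held 2 or more, and of all coding genes 19.7%. A match describes letters and not a site in use. The stretches of 6 members that recur below are printed 5′ to 3′ on the gene's strand, with GTAAACA or TGACGT and their reverse complements TGTTTAC and ACGTCA in capitals. The first 3 carry the forkhead motif and differ in level and response, and the last 3 carry TGACGT. Of these, mug190 was called higher after H2O2 in both labels and mug180 under the ∆wee1 label, and mug154 was called lower in wild type.
meu14 (chrII:4066044-4066293, plus strand): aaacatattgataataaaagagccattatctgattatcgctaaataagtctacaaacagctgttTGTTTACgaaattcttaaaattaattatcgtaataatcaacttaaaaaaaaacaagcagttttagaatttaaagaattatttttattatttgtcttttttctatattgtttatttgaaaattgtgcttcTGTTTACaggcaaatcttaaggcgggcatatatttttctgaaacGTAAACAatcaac
mug73 (chrIII:624528-624777, minus strand): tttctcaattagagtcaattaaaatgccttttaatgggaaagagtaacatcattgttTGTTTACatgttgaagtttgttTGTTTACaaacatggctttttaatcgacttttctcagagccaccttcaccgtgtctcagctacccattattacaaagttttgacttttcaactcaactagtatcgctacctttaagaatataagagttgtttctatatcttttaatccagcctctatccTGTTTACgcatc
mug133 (chrI:2263417-2263666, plus strand): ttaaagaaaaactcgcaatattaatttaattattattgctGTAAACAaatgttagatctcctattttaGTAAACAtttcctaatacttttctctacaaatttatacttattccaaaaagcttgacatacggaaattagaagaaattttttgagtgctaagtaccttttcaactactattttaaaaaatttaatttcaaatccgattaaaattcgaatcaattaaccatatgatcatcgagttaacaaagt
mug190 (chrIII:532407-532656, plus strand): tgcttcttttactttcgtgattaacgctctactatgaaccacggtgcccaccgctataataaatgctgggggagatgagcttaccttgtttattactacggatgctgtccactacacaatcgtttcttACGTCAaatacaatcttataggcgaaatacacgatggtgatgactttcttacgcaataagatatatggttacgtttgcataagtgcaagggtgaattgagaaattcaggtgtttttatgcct
mug180 (chrII:4460309-4460558, plus strand): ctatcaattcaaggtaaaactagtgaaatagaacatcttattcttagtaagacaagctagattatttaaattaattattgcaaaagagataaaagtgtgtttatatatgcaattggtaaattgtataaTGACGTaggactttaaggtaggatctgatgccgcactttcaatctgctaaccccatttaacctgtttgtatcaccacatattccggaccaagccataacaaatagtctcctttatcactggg
mug154 (chrIII:451764-452013, minus strand): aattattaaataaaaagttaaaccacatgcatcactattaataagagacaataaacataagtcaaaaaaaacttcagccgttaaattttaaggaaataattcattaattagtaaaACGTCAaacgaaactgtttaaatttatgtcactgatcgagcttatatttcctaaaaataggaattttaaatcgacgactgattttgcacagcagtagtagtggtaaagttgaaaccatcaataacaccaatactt
The stretches of meu14 and mug73 hold 3 GTAAACA matches each and that of mug133 holds 2, while those of mug190, mug180 and mug154 hold 1 TGACGT match each. The stretch of mug154 overlaps an exon of another protein-coding gene, and those of the other members printed overlap none.

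Most members were present at low levels in all 4 pools. The median of the 114 coding members was 11.8, 10.1, 11.0 and 10.7 FPKM in the 4 pools. Over 4984 nuclear protein-coding genes the medians were 36.8, 34.4, 37.9 and 36.6 FPKM. In untreated wild type 92 of 114 coding members lay below the median of all coding genes and 47 lay at or below their 10th percentile. The exception at the top was mug64, which encodes a protein with a BAR domain, a membrane-bending fold. It read 435, 518, 375 and 426 FPKM, and was the only member above the 90th percentile of coding genes. The other non-coding RNAs had medians between 2.14 and 4.61 FPKM over the 4 pools.

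**Figure D1:**
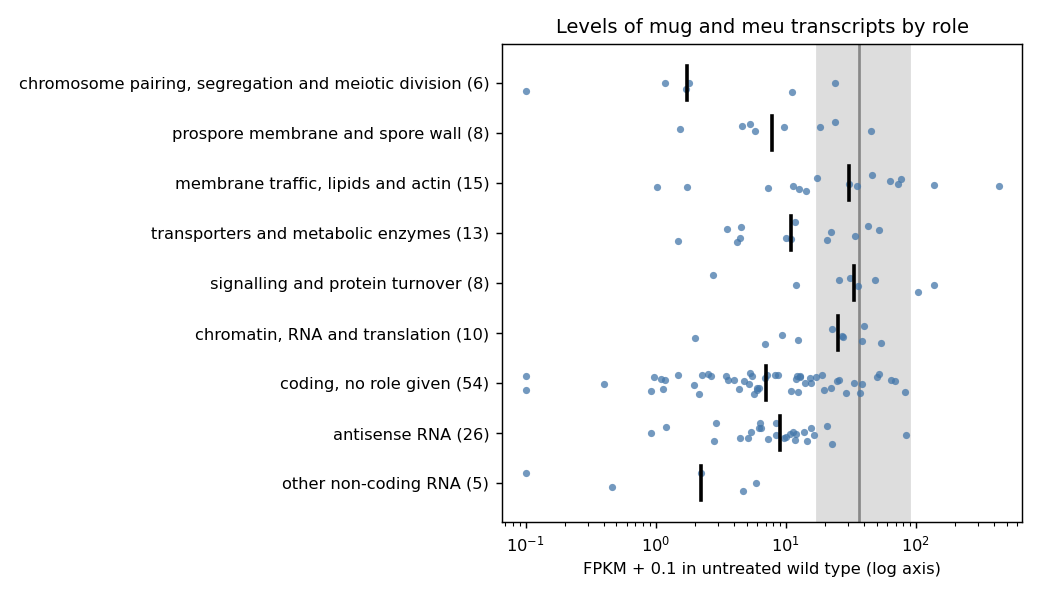
FPKM plus 0.1 in untreated wild type (log axis) of the 145 members, 1 point each, by role, with the number of members in parentheses. Black bars are role medians, and the grey line and band are the median and the middle 50% of all nuclear protein-coding genes (17.4 to 90.3 FPKM). Members for chromosome pairing and division have the lowest median among the coding roles.

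The median level differed between roles, as a description without a test. The 6 described members for chromosome pairing, segregation and meiotic division had a median of 1.65 FPKM in untreated wild type. Among them meu13, which encodes the homologous-pairing protein Hop2, stood at 1.602 FPKM, mug20, a component of the axes of meiotic chromosomes, at 1.70 FPKM, and mug55, an activator of the anaphase-promoting complex in meiosis, at 1.08 FPKM. The gene mug1, for a dynactin subunit that serves nuclear movement in meiosis, was listed at 0, 2.57, 1.09 and 0.618 FPKM. The others of this role, mug5 and mug99, stood higher, at 11.1 and 23.8 FPKM in untreated wild type. The 8 members for the prospore membrane and spore wall had a median of 7.69 FPKM. This group ran from meu10, for a GPI-anchored protein of the spore wall, at 1.43 FPKM to mug57, annotated to spore formation, at 45.1 FPKM. Transporters and metabolic enzymes had a median of 10.8 FPKM over 13 members. Membrane traffic, lipids and actin reached 30.7 FPKM over 15 members, signalling and protein turnover 33.4 FPKM over 8, and chromatin, RNA and translation 24.97 FPKM over 10. The phosphatase inhibitor gene mug134, known as igo1 and active in nutrient signalling, read 138, 167, 131 and 155 FPKM. The 54 coding members with no role given had a median of 6.93 FPKM.

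The first comparison asks how the members answered 15 min of H2O2 in wild type. By the calls of the authors' deposited table, 7 members rose and 13 fell of 142 tested, against 6.97% of all tested genes called higher and 7.48% called lower. The members' share called in either direction, 14.1%, was close to the 14.5% of all genes. Calls that were also at least 2-fold numbered 10 members, beside 5.14% of all genes. The median log2 ratio was 0.01 over the members and 0.02 over all tested genes. Coding members were called higher in 4 and lower in 12 of 112 cases, beside 6.44% and 9.13% of all coding genes. The share called differed by locus in members and in all genes alike: 28.9% of the 38 members alone in their locus were called, beside 26.0% of all such genes, and 8.65% of the 104 members that share a locus, beside 9.46% of all such genes. Ribosomal RNA made up 22.2% of the FPKM in the H2O2 pool of this comparison and 3.13% in the untreated one, and the part of that difference in these calls was not tested.

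**Figure D2:**
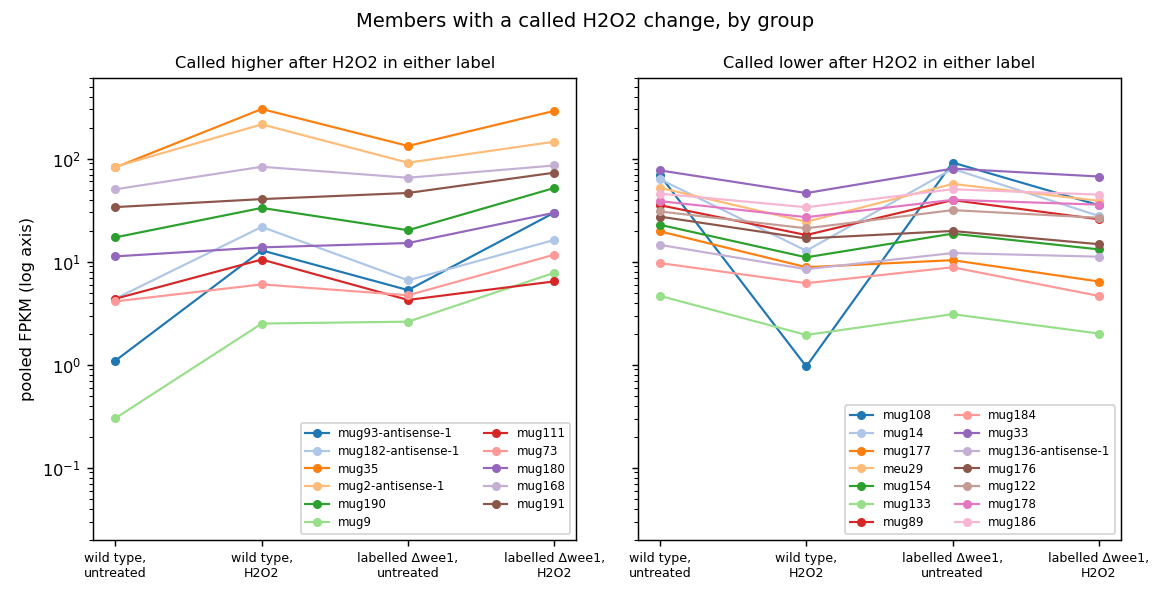
Pooled FPKM (log axis) in the 4 groups of the 11 members called higher (left) and the 14 called lower (right) after H2O2 in wild type, in the ∆wee1 label or in both. Each line joins the 4 pooled values of 1 member, which have no error bar because 1 value per group was deposited; mug108 lies at 0.961 FPKM in wild type after H2O2.

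Among the coding members called higher in wild type, mug35 had the highest level. It lies on the minus strand of chromosome I at 893278 to 894487 and encodes a protein with no role given. Its level was 82.2, 303, 133 and 291 FPKM. Both H2O2 pools were above both untreated pools. The rise was 1.87 ± 0.37 log2 units in wild type with a q-value of 8.19e-04 in the authors' deposited table. The gene mug111, annotated as a membrane transporter, stood at 4.36 FPKM untreated and 10.5 FPKM after H2O2 in wild type, a rise of 1.10 ± 0.27. The gene mug190, whose upstream stretch with TGACGT is printed above, encodes the tricalbin Tcb2, which tethers the endoplasmic reticulum to the plasma membrane. It stood at 17.2 and 33.2 FPKM in wild type and at 20.2 and 51.9 FPKM under the ∆wee1 label, and rose by 0.91 ± 0.20 in wild type. With mug168, at 50.4 FPKM untreated and 83.3 FPKM treated, these were the 4 coding members that rose in wild type.

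Among 15 members for membrane traffic, lipids and actin, 5 fell and 1, mug190, rose in wild type, beside 9.13% of all coding genes called lower and 6.44% called higher. Of the coding members with a mean of 20 FPKM or more, whatever their role, 27.0% were called, beside 16.2% of all coding genes at that level. All the called members of this role are among those, so the 27.0% is not separate from the role's own share. The steepest of the 5 falls in this role was that of mug14, which encodes an adducin, a protein family that organises actin. It read 63.1, 12.8, 79.6 and 27.7 FPKM. The treated pools lay below the untreated pools in both labels, and the wild-type fall was -2.22 ± 0.45 with a q-value of 8.19e-04 in the authors' deposited table. The gene mug89, for a subunit that partners phospholipid flippases, went from 35.3 to 18.1 FPKM in wild type, a log2 ratio of -0.93 ± 0.22. The gene mug33, which acts in exocytosis, went from 76.8 to 46.3 FPKM, with -0.72 ± 0.26. Smaller falls were those of mug122, for a protein with a phosphoinositide-binding PX domain, at -0.52 ± 0.21, and of mug186, for the sorting nexin Snx41, at -0.43 ± 0.21.

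Of 10 members for chromatin, RNA and translation, 3 fell and 0 rose in wild type, beside the same 9.13% and 6.44% of all coding genes. The gene mug154, which like mug190 has TGACGT in its printed stretch, encodes Nur1, a protein of the nuclear rim. It went from 22.8 to 11.0 FPKM, a log2 ratio of -0.99 ± 0.28. The BRCT-domain gene mug176 went from 27.3 to 16.8 FPKM and the mitochondrial ribosomal protein gene mug178 from 38.7 to 27.0 FPKM. Among 8 members for the prospore membrane and spore wall 1 fell, mug184, annotated to sporulation and exocytosis, from 9.68 to 6.18 FPKM with a q-value of 0.0495 in the authors' deposited table, just under the limit. No member for chromosome pairing and division, for signalling and protein turnover, or among the 4 tested non-coding RNAs other than antisense RNAs was called in wild type. Members with no role given that fell were meu29, from 52.1 to 24.4 FPKM, mug177, from 19.7 to 8.83 FPKM, and mug133, from 4.65 to 1.94 FPKM. The gene mug177 overlaps mug58, a glycerate kinase gene on the opposite strand, over 1407 bases, and mug58 stood at 42.5 and 46.4 FPKM in the same pools.

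The largest ratio of all members was not a call. The gene mug108, of no given role, lies on the plus strand of chromosome I at 5124516 to 5125643, inside rga3, a gene on the opposite strand at 5123328 to 5129033. It read 68.8, 0.961, 91.6 and 35.3 FPKM. The wild-type pool after H2O2 stands apart from the other 3. The log2 ratio was -5.15 ± 0.99 in wild type with a q-value of 0.325 in the authors' deposited table, and -1.35 ± 0.34 under the ∆wee1 label with a q-value of 8.19e-04, which is a call. With a pool at 0.961 FPKM, the wild-type ± is made smaller by the log2(FPKM + 1) scale and is not the error behind its q-value. The gene rga3 read 17.9, 6.84, 21.4 and 8.87 FPKM and was called lower after H2O2 in both labels.

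Under the ∆wee1 label 8 members rose and 5 fell after H2O2 of 143 tested in the authors' deposited table, against 5.35% of all tested genes called higher and 4.14% called lower. Medians were -0.05 over the members and -0.01 over all tested genes, and 8 members were also at least 2-fold, beside 3.45% of all genes. Beside mug35, at 1.13 ± 0.34, and mug190, at 1.32 ± 0.20, the coding members that rose were mug73, mug180, mug191 and mug9. The transporter gene mug73, with 3 forkhead motifs in its printed stretch, went from 4.72 to 11.7 FPKM under the label, a rise of 1.15 ± 0.37, and stood at 4.11 and 6.02 FPKM in wild type. The gene mug180, for the sterol deacetylase Say1, has TGACGT in its printed stretch and went from 15.2 to 29.8 FPKM, a rise of 0.93 ± 0.25, with 11.3 and 13.8 FPKM in wild type. The mannanase gene mug191, for an enzyme that cuts the cell wall sugar chain, went from 46.4 to 73.1 FPKM. The gene mug9 went from 2.62 to 7.80 FPKM. The 5 that fell were mug14, at -1.49 ± 0.37, mug108, mug184, at -0.80 ± 0.30, mug89, at -0.60 ± 0.21, and meu29, at -0.54 ± 0.24.

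**Figure D3:**
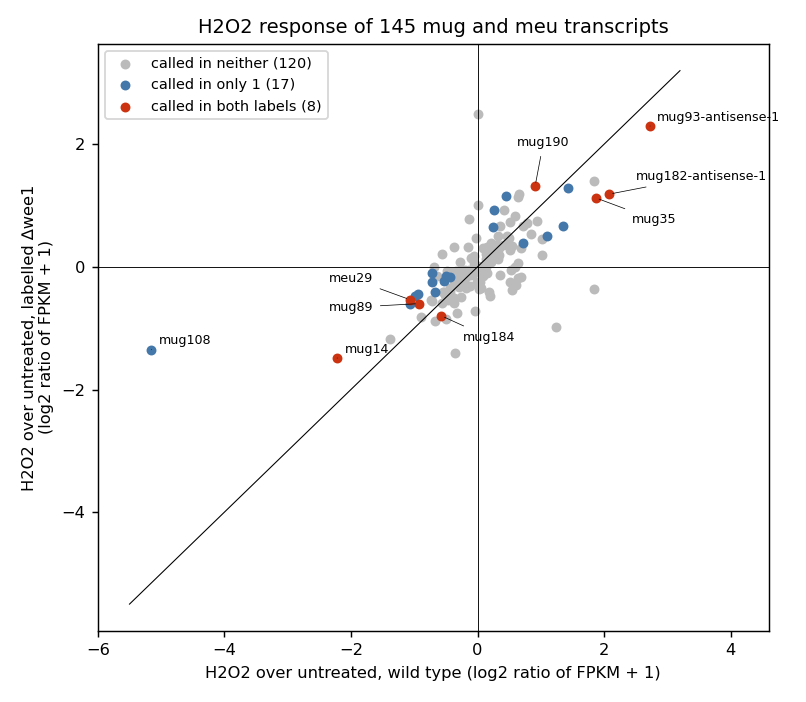
Log2 ratio of FPKM + 1, H2O2 over untreated, in wild type (x axis) and under the ∆wee1 label (y axis) for the 145 members, coloured by whether the authors' deposited table called them in neither (120), 1 (17) or both (8). The diagonal marks equal ratios; the 8 members called in both lie in the upper right or lower left, and mug108 lies far left at -5.15 in wild type.

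The 2 responses came from separate pools and can be set side by side. In both labels mug35, mug190, mug93-antisense-1 and mug182-antisense-1 rose, mug14, mug89, mug184 and meu29 fell, and 0 members were called in opposite directions. The like counts over all genes were not made, so these are not read as particular to the members. The sign of the ratio was shared by 112 of 145 members, 77.2%, beside 78.4% of all genes at 1 FPKM or more. Across the 145 members, which are not independent of each other, Pearson's r between the ratios was 0.66, and 0.67 without mug108. Over all genes at 1 FPKM or more it was 0.33, as a description of these pools. Ribosomal RNA genes were not left out of that set. Their share of FPKM went from 3.13% to 22.2% after H2O2 in wild type and from 10.9% to 3.19% under the label. Their part in the 0.33 was not tested, so the values of r are not like for like. The difference of the response between labels was tested with a z test over 6111 genes with Benjamini-Hochberg adjustment. It called 0 of 139 members and 19 of all genes, 0.311%, and 1 member, mug108, had an unadjusted p under 0.05, with a difference of 3.80 ± 1.05 and an adjusted p of 0.080. The z values of all genes had a robust SD of 0.452 in place of about 1, so the errors are wide for most genes and a member that did not pass is not shown to respond alike. With the errors rescaled to that spread the test called 4.88% of genes and 8 members. In 8 coding members with TGACGT upstream the median ratio after H2O2 was 0.39 in wild type over 8 tested and 0.53 under the ∆wee1 label over 7 tested, beside -0.05 and -0.07 in coding members without it. These few members varied: in wild type 1 was called higher and 1 lower, with mug154 at -0.99 and mug147 at -0.56, and under the label 2 were called higher and 0 lower. With and without GTAAACA the medians were -0.06 and 0.02 in wild type and -0.07 and -0.06 under the label.

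Antisense RNAs form the second class of members, transcribed from the strand opposite a gene, where they can pair with or interfere with the sense transcript. The 26 antisense members had medians of 8.99, 10.5, 9.14 and 9.87 FPKM in the 4 pools, beside 5.84, 7.52, 7.04 and 8.18 FPKM over all 598 named antisense RNAs. By RefSeq coordinates 25 of them overlap a member on the opposite strand. The antisense RNA had the higher FPKM in all 4 pools in 13 of these pairs, the sense gene in 8, and the order varied in 4. For the kinase gene mug27, which acts on the forespore membrane, the antisense RNA stood at 22.6, 13.1, 14.6 and 9.68 FPKM while the sense gene was at 0, 0.157, 0.391 and 0.872 FPKM. For mug68 the antisense RNA stood at 20.8, 26.0, 26.7 and 34.4 FPKM and the sense gene stayed below 1 FPKM in all 4. At the other end, mug64 stood at 435 FPKM in untreated wild type over an antisense RNA named for mug54 at 0.821 FPKM.

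In wild type 3 antisense members rose and 1 fell after H2O2 of 26 tested, beside 5% called higher and 1.21% called lower of 580 antisense RNAs. The RNA mug93-antisense-1 read 1.09, 12.9, 5.29 and 29.9 FPKM. Its level was higher in each treated pool than in the untreated pool of the same label. It rose with H2O2 by 2.73 ± 0.34 in wild type and 2.30 ± 0.26 under the label, and was called in all 4 comparisons. Its sense gene mug93, for a TPR-repeat protein, was at 0.741 FPKM in the untreated wild-type pool, listed at 0 in the treated one and below 0.001 FPKM under the label. The RNA mug182-antisense-1 went from 4.37 to 21.7 FPKM in wild type and from 6.59 to 16.3 FPKM under the label, rises of 2.08 ± 0.43 and 1.19 ± 0.43. Its sense gene mug182, for an epimerase that repairs damaged NADH, stood at 22.4, 29.98, 35.3 and 45.4 FPKM and was not called after H2O2. The most abundant antisense member, mug2-antisense-1, went from 83.5 to 215 FPKM in wild type, a rise of 1.35 ± 0.50, and stood at 91.3 and 146 FPKM under the label, where it was not called. Its sense gene mug2 stood at 12.8, 16.6, 15.4 and 14.01 FPKM. The RNA that fell in wild type was mug136-antisense-1, from 14.6 to 8.45 FPKM. In 0 pairs were sense and antisense both called, in any of the 4 comparisons, but few genes of these pairs were called at all. The like count over all sense and antisense pairs was not made, so the 0 is not a result about the members.

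**Figure D4:**
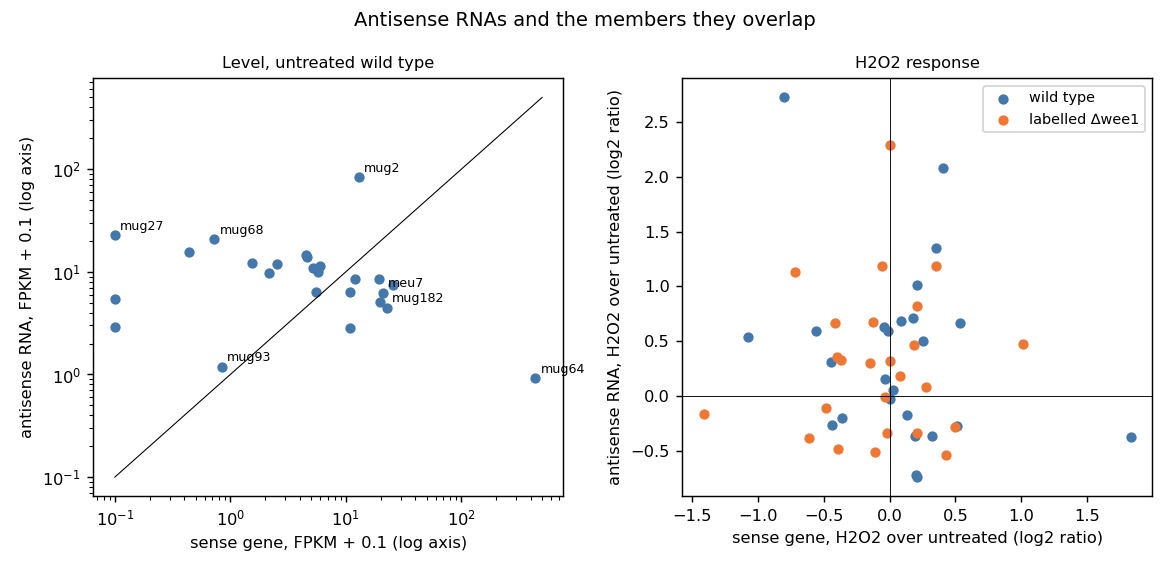
Left, FPKM plus 0.1 in untreated wild type (log axes) of the sense gene (x axis) and its antisense RNA (y axis) for 25 pairs, with the line of equal levels; 16 pairs lie above it. Right, log2 ratio of H2O2 over untreated for sense (x axis) and antisense (y axis) in wild type and under the ∆wee1 label; the highest antisense ratios, 2.73 and 2.30, are those of mug93.

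The other pair of comparisons sets the ∆wee1 label against wild type. In untreated cells 4 members were higher and 3 lower of 141 tested in the authors' deposited table, beside 4.65% and 4.22% of all tested genes, and 1 member was also at least 2-fold, beside 2.74% of all genes. Higher were mug191, mug182, mug109, which encodes a protein that binds Rab GTPases, and mug93-antisense-1. The gene mug109 stood at 14.1 FPKM in wild type and 23.2 FPKM under the label, and mug182 at 22.4 and 35.3 FPKM, differences of 0.68 ± 0.32 and 0.63 ± 0.32. Lower were mug115, from 22.3 to 13.1 FPKM, mug100, from 12.4 to 7.57 FPKM, and mug177, from 19.7 to 10.3 FPKM. With p-values adjusted within this pair of groups alone, 3 members were called, beside 7.32% of all genes. Members for chromosome pairing and division had ratios above 0 in 5 of 6 without a call, beside 63.4% of all coding members and 54.9% of all tested genes. The member below 0 was mug55, at 1.08 FPKM in wild type and listed at 0 under the label. Those above included mug20 at 1.70 and 5.41 FPKM, with 1.25 ± 1.36, and meu13 at 1.602 and 3.18 FPKM, with 0.68 ± 0.55. Also above was mug1, listed at 0 and 1.09 FPKM, which overlaps mug1-antisense-1 at 5.31 and 4.73 FPKM. Most of this role have a mean under 5 FPKM. Of coding members with a mean of 0 to 5 FPKM 73.3% were above 0, beside 63.9% of all coding genes at that level. The prospore membrane gene meu14, whose protein marks the leading edge of the growing membrane, stood at 4.52 and 10.6 FPKM in untreated pools, with 1.07 ± 1.18, and shares its locus with meu14-antisense-1 at 13.9 and 12.8 FPKM. It differs in sign from most of its role, in which 2 of 8 ratios were above 0 and the median was -0.10. None of the differences of mug20, meu13 and meu14 was called.

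After H2O2, 13 members were higher and 4 lower under the ∆wee1 label of 145 tested in the authors' deposited table, beside 6.52% and 7.03% of all tested genes, and 8 were also at least 2-fold, beside 3.74% of all genes. The medians were 0.10 over the members and 0.03 over all tested genes. Ribosomal RNA made up 22.2% of the FPKM in the wild-type H2O2 pool and 3.19% in that of the ∆wee1 label. The part of that difference in these calls was not tested. Of the 15 members for membrane traffic, lipids and actin, 6 were higher and 0 lower, beside 372 higher and 349 lower of 4964 coding genes tested. These were mug180, at 13.8 FPKM in wild type and 29.8 FPKM under the label, mug14, at 12.8 and 27.7 FPKM, mug190, at 33.2 and 51.9 FPKM, mug33, at 46.3 and 67.0 FPKM, mug89, at 18.1 and 25.8 FPKM, and meu6, at 2.67 and 6.14 FPKM. The largest of these differences were 1.06 ± 0.25 for mug180 and 1.06 ± 0.48 for mug14. This comparison shares its wild-type H2O2 pool with the first one, in which mug14, mug33 and mug89 fell, so the calls are not independent. In the untreated pools mug14 stood at 63.1 FPKM in wild type and 79.6 FPKM under the label, mug33 at 76.8 and 80.0 FPKM, and mug89 at 35.3 and 39.5 FPKM, and none of the 3 was called there.

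Other members higher after H2O2 were mug191, at 40.5 FPKM in wild type and 73.1 FPKM under the label, mug147, at 17.0 and 32.6 FPKM, mug73, at 6.02 and 11.7 FPKM, meu29, at 24.4 and 38.9 FPKM, mug9, at 2.51 and 7.80 FPKM, the non-coding RNA meu3, at 2.60 and 6.77 FPKM, and mug93-antisense-1. Lower were mug115, at 22.2 and 10.9 FPKM with -0.96 ± 0.34, mug105, for a protease of the ubiquitin-fold modifier, at 106 and 65.4 FPKM, mug111, at 10.5 and 6.43 FPKM, and the non-coding RNA meu19, at 9.65 and 4.68 FPKM. In both conditions mug191 and mug93-antisense-1 were higher and mug115 was lower under the label. Of all 145 members, 111 were called in no comparison and 34, or 23.4%, in at least 1, beside 26.1% of all genes at 1 FPKM or more.

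**Figure D5:**
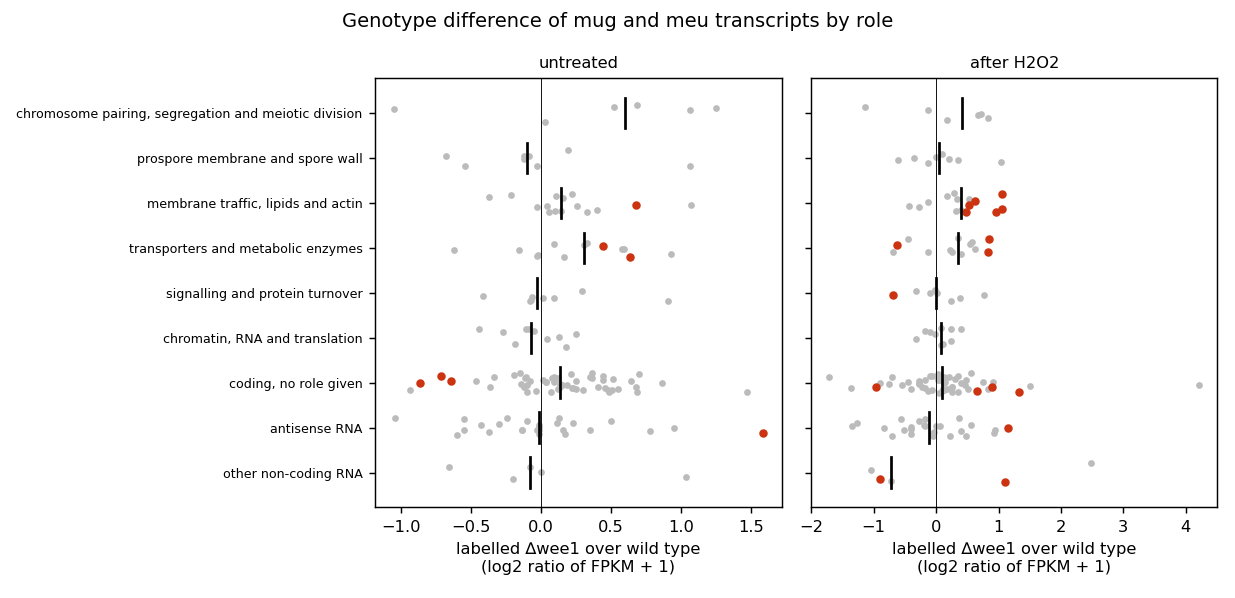
Log2 ratio of FPKM + 1 of the ∆wee1 label over wild type, untreated (left) and after H2O2 (right), for the members by role, 1 point each, on axes of different range. Red points are members called in the authors' deposited table and black bars are role medians; 7 points are red at left and 17 at right, 6 of the latter in membrane traffic, lipids and actin.

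Genes that control or carry out meiosis and bear other names were read beside the members from 4 lists. Their counts stand beside 6.97% of all tested genes called higher and 7.48% called lower after H2O2 in wild type, and 5.35% and 4.14% under the ∆wee1 label. Of 16 tested genes for entry into meiosis, 2 were higher and 2 lower after H2O2 in wild type, and 3 were higher and 2 lower under the ∆wee1 label. The fallers were ste11, the starting transcription factor, at 20.1, 3.64, 8.75 and 2.86 FPKM in the 4 pools, and mei2, for the RNA-binding switch protein of meiosis, at 7.13, 3.37, 6.22 and 2.56 FPKM. The non-coding partner of Mei2, sme2, rose in both labels and stood at 33.8, 155, 69.9 and 180 FPKM. The Mei4 gene, mei4, stood at 1.75, 4.67, 2.02 and 8.47 FPKM and was called in no comparison. Of 21 genes for the removal of meiotic transcripts, 0 were higher and 4 lower after H2O2 in wild type, among them mot2 and not1, and mmi1 itself stood at 16.9, 15.9, 17.0 and 15.6 FPKM with no call. Of the genes for meiotic recombination and chromosomes, 2 of 27 were higher and 1 lower in wild type, and 3 of 29 higher and 0 lower under the label. The cohesin gene rec8 rose in both labels, at 1.29, 2.64, 1.61 and 3.36 FPKM, as did mcp7, a partner of meu13 in pairing, at 2.04, 9.31, 4.93 and 17.0 FPKM. Of the genes for spore formation, 1 of 27 was higher and 1 lower in wild type, and 0 of 28 were called under the label.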

How the data were processed

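RNA-seq of 8 libraries in 4 groups was read from 2 tables. Reads had been handled with cutadapt, HISAT2 and Cuffdiff, per the submitters' processing notes. For tool versions, genome build and use of strand nothing is given in the sources used here. FPKM values were deposited by the authors, 1 pooled value per gene and group, and, per the file headers, a table for 6 pairs of groups that lists for each gene the log2 fold change, the statistic as a score, the p-value and the q-value. The deposited p-value is never under 5e-05, and the q-value was adjusted over the 6 pairs jointly. Depth is unknown, so no interval or detection floor was computed. Columns of other samples used or left aside numbered 0.

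Members and lists were chosen with earlier results of these data known. With no value per library, the planned limma model was replaced by the planned branch for pooled values: the authors' calls at a q-value under 0.05, read against all genes tested, for genes with at least 1 FPKM in any group. Some members were not tested by the authors in a comparison and are left out of its counts. Log2 ratios used a pseudocount of 1 FPKM. Group variances were solved from fold change and statistic over the 6 pairs (6111 genes, largest relative misfit 9.5e-06). They were then carried to the log2(FPKM + 1) scale. The difference of responses was a two-sided normal z test with Benjamini-Hochberg adjustment. On simulated data for that difference it found 20% of genes changed by 1 log2 unit, 64% of those changed by 2, and called 0.0508% of 5911 unchanged genes.

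All 154 members matched RefSeq (ASM294v3), and 5074 of 5097 genes with coordinates in the files share a start or end with it. Roles follow RefSeq products and the annotation in the authors' deposited table. Named members are, per comparison, the called members with the 10 largest rises and falls at 5 FPKM or more, the 10 highest mean levels, those near 1 FPKM and some of known role. Picked after their values were seen were meu13, mug1, mug2, mug5, mug57, mug68, mug99, mug133, mug54-antisense-1, mug27-antisense-1, mug68-antisense-1 and meu14-antisense-1. The printed upstream stretches and the genes of the 4 lists were also picked then. Alternatives were other pseudocounts, filters and scalings, single-gene loci, a 2-fold minimum, adjustment within a pair and rescaled errors. Python 3.11.15, numpy 2.4.6, pandas 2.3.3 and scipy 1.17.1 were used.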

Additional observations from a re-analysis of the deposited data

Results flagged for a closer look

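With the errors of the response difference rescaled to a robust SD of 1, the z test over 6111 genes called 298 genes, 4.88%, and 8 of 139 members, a share close to that of all genes. The rescaling takes most genes to respond alike in both labels, which was not tested. The test without rescaling called none of the 8. Each difference is the log2 ratio under the ∆wee1 label minus that in wild type.

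The differences above 0 were 3.80 for mug108 (-5.15 in wild type and -1.35 under the label), 0.77 for mug147 (-0.56 and 0.20), 0.66 for mug180 (0.27 and 0.93), 0.53 for meu29 (-1.07 and -0.54) and 0.41 for mug190 (0.91 and 1.32). Those below 0 were -0.89 for mug182-antisense-1 (2.08 and 1.19), -0.74 for mug35 (1.87 and 1.13) and -0.60 for mug111 (1.10 and 0.50). Their adjusted p-values in that rescaled z test with Benjamini-Hochberg adjustment were 2.4e-13 for mug108, 0.0014 for mug147, 0.0041 for mug180, and between 0.021 and 0.037 for the other 5. The value of mug108 rests on a single pool at 0.961 FPKM, in a locus shared with rga3. Its error is made smaller by the log2(FPKM + 1) scale and again by the rescaling, so its adjusted p-value is too small. The q-value of its wild-type change in the authors' deposited table was 0.325.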

How the results depend on the processing

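Of 56 recomputed values, 40 kept their direction and size (counts within 1.5 times). Counting only members alone in their locus took the calls from 20 to 11 after H2O2 in wild type. Under the ∆wee1 label they went from 13 to 8. Between labels they went from 7 to 3 untreated and from 17 to 10 after H2O2. Of such members tested these are 28.9%, 20.5%, 7.89% and 25.6%, beside 26%, 17%, 15.4% and 23.4% of all such genes. A 2-fold minimum gave 10, 8, 1 and 8 in the same order. Both alternatives can only remove calls. Adjustment within the pair gave 3 between labels untreated. Quantile normalization turned the median ratio of members to -0.11 after H2O2 in wild type, where that of all genes moved from 0.02 to -0.11, and to -0.0050 between labels untreated; 0 called members changed sign under it. In single-gene loci the medians were -0.10 after H2O2 in wild type and 0.25 between labels after H2O2. For the difference of responses 1 member was called with a pseudocount of 5 FPKM, 8 with rescaled errors and 1 at an unadjusted p under 0.05. The cause of the moves in medians was not tested.

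No paired analysis was possible because the files hold 1 pooled value per group, and for the same reason leaving out a library was not run. Depth is unknown, so values near 1 FPKM have no counting error beside them. P-values come from the authors' pooled fit of 2 libraries per group.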

Other observations

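The members nearest to chromosome ends, by RefSeq coordinates, are given with their calls. In the comparison of labels after H2O2, the non-coding RNA meu19, 33.1 kb from an end of chromosome III, was lower under the ∆wee1 label. Higher there were meu3, 42.0 kb from an end of chromosome III, mug180, 77.7 kb from an end of chromosome II, mug9, 83.0 kb from an end of chromosome III, and mug14, 129 kb from an end of chromosome II. In that comparison 13.6% of all tested genes and 11.7% of the members were called in either direction. After H2O2, mug180 and mug9 were also called higher under the ∆wee1 label, and mug14 was called lower in both labels. On chromosome III, mug170 at 56.7 kb, meu23 at 98.6 kb, mug135 at 112 kb and mug135-antisense-1 at 113 kb were not called. No comparison by distance from an end was made, so these calls are not read as particular to chromosome ends.

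The highest-ranked members that were called in no comparison were mug64, mug134, mug69 and mug143. The gene mug143 has no given role and holds both TGACGT and GTAAACA in its upstream stretch. It read 64.2, 116, 118 and 171 FPKM in untreated wild type, treated wild type, untreated ∆wee1 label and treated ∆wee1 label. The gene mug69 read 137, 145, 134 and 133 FPKM in that order, the narrowest spread of these 4.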
